A study of Homo sapiens with 12 samples.

Results

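The comparison set cells kept in 50 nM THZ1 for 2 h against cells in DMSO, in KYSE510 and TE7, which the labels give as cell lines of esophageal squamous cell carcinoma. Members were chosen by label: 2 libraries after 2 h of THZ1 and 2 DMSO libraries, 1 of each per line, or 4 of the 12 libraries of the series. The other 8 libraries, from later times and from 200 nM, entered only the estimate of the spread and the check of the libraries. TE7 cells were cultured in DMEM and KYSE510 cells in RPMI-1640, both with serum, and polyadenylated RNA was sequenced from TruSeq libraries; the labels name no engineered allele in either line. In their titles the DMSO libraries stand at 0 h, but their time label reads 12 h, and no DMSO library is labelled 2 h. Effects of the compound at 2 h and of handling or hours in culture therefore cannot be told apart. With 1 library per line and condition the lines stood as the replicates. The constant difference between the lines was fitted as a block. The p-values therefore measure how far the lines disagreed across conditions, pooled over all 12 libraries, and no spread between repeated libraries.

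THZ1 binds covalently to CDK7, the kinase of the general transcription factor TFIIH that phosphorylates the tail of RNA polymerase II and also activates the cyclin-dependent kinases of the cell cycle; at higher doses it also binds CDK12 and CDK13. When transcription is held back, transcripts with a short half-life are the first to decline, and inhibitors of transcriptional kinases are also known to raise some short, quickly made genes. Immediate-early genes, such as those of AP-1, EGR and NR4A factors, are switched on within minutes by growth factor and stress signals without new protein synthesis, and many of their products shut the same signals off again.

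Levels are FPKM, fragment counts scaled to transcript length and to the mapped fragments of the library, and a change is the log2 ratio of FPKM + 1 at 2 h over DMSO, which understates the change of genes with low FPKM. FPKM is relative to each library's total, so a loss of RNA shared by all genes would not show. FPKM summed to 590619 in TE7 and 451155 in KYSE510 at 2 h, against 604963 in TE7 and 489371 in KYSE510 in DMSO. At least 1 FPKM was reached by 13575 and 13224 genes at 2 h, against 13982 and 12963 in DMSO. All 10 markers of squamous epithelium were at or above 1 FPKM in each of the 4 libraries, no endothelial marker was, and the fibroblast and leukocyte lists summed to 4.15 to 12.2 FPKM at 2 h, against 6.45 to 12.8 FPKM in DMSO. The columnar epithelium list summed to 810 and 1360 FPKM in TE7 and KYSE510 at 2 h, against 1370 and 1170 FPKM in DMSO. Of its 12 markers 3 to 4 were at or above 1 FPKM, and CDX1 and CDH17 were at 0. CDX2 stood at 6.22 FPKM in KYSE510 at 2 h and at 0 in KYSE510 DMSO and both TE7 libraries. KRT19, a keratin of this list, stood at 377 and 666 FPKM at 2 h, against 829 and 11.0 FPKM in DMSO. The library labelled KYSE510 DMSO stood apart. Across 15610 tested genes it correlated with the KYSE510 library at 2 h at r = 0.879, against r = 0.976 for the TE7 pair and r = 0.989 for the KYSE510 libraries at 4 h and 2 h. Genes at opposite ends in KYSE510 had at least 8 FPKM in DMSO and under 0.3 FPKM in every 50 nM library of the line, or the reverse. Over all identifiers, tested or not, 50 were high in DMSO and 61 were low there. Among tested genes past 2-fold in KYSE510, 28 were high in that library and 61 were low in it. Even lineage genes were among its differences, with the keratin gene KRT6A at 1500 FPKM in KYSE510 at 2 h and 14.4 FPKM in KYSE510 DMSO, against 360 and 190 FPKM in TE7. The part of that library in the KYSE510 changes was not tested, and TE7 values are therefore given first. Of 15 tested mitochondrially encoded genes, which every cell uses, 12 were listed at 0 in both KYSE510 libraries, while such genes held 12.9% of summed FPKM in TE7 at 2 h and 8.88% in TE7 DMSO. A listed 0 can be a failed estimate, so these zeros are not read as expression.

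In TE7, 226 of 15610 genes (1.45%) lay at least 2-fold higher after 2 h of THZ1 and 284 (1.82%) at least 2-fold lower. In KYSE510 the counts were 2063 (13.2%) and 1372 (8.79%). A gene that reached 1 FPKM only in the library labelled KYSE510 DMSO was not tested. With no filter on low values the KYSE510 counts were 2093 up and 1677 down among 35600 genes. Genes past 2-fold in the same direction in both lines numbered 97 up (0.621%) and 71 down (0.455%). The 97 made up 42.9% of the TE7 list of higher genes and 4.7% of the KYSE510 list, and the 71 made up 25% and 5.17% of the lists of lower genes. Past 2-fold in opposite directions were 12 genes up in TE7 and down in KYSE510, and 26 down in TE7 and up in KYSE510. Of the 226 genes higher in TE7, 153 (67.7%) were also higher in KYSE510 at any size, against 53.2% of all tested genes, and of the 284 lower in TE7, 176 (62.0%) were also lower there, against 44.9% of all. These counts carry no test, since each line has 1 library per condition.

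The limma test over all genes, which took the spread from all 12 libraries, called 2 genes up (0.0128%) and 0 down (0%) at an adjusted p under 0.05, while 1683 genes (10.8%) had an unadjusted p under 0.05. Both calls are early nuclear regulators. FOSL1, on chromosome 11 at 65659520 to 65668044 of hg19, encodes the AP-1 subunit FRA1 and stood at 316 and 157 FPKM in TE7 and KYSE510 at 2 h, against 41.3 and 10.2 FPKM in DMSO. In TE7 the authors' 95% bounds, which cover counting error only, were 306 to 326 FPKM at 2 h and 39.5 to 43.1 FPKM in DMSO. CSRNP1, on chromosome 3 at 39183346 to 39196053, encodes a nuclear protein with transcription-activating function and stood at 10.1 and 12.4 FPKM at 2 h, against 1.41 and 1.25 FPKM in DMSO. FOSL1 rose by 3.36 ± 0.23 and CSRNP1 by 2.39 ± 0.21 on the log2 scale (limma SE, n = 2 lines, adjusted p = 0.00912 and adjusted p = 0.0324). Neither was called with limma when either 2 h library or the library labelled KYSE510 DMSO was left out (0 genes up and 0 down each time). CSRNP1 also lost its call with a pseudocount of 0.1, with a mean of at least 5 FPKM and under each of 3 other scalings. Without the TE7 DMSO library, so that the control was the library that stood apart, limma called 924 genes up and 793 down. A fit chosen after the values were seen left out the library labelled KYSE510 DMSO and both 200 nM libraries. Among its libraries DMSO is present for TE7 alone, and it called 88 genes up and 107 down, of which 43 and 32 were past 2-fold in both lines; FOSL1 and CSRNP1 were among the 88.

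**Figure D1:**
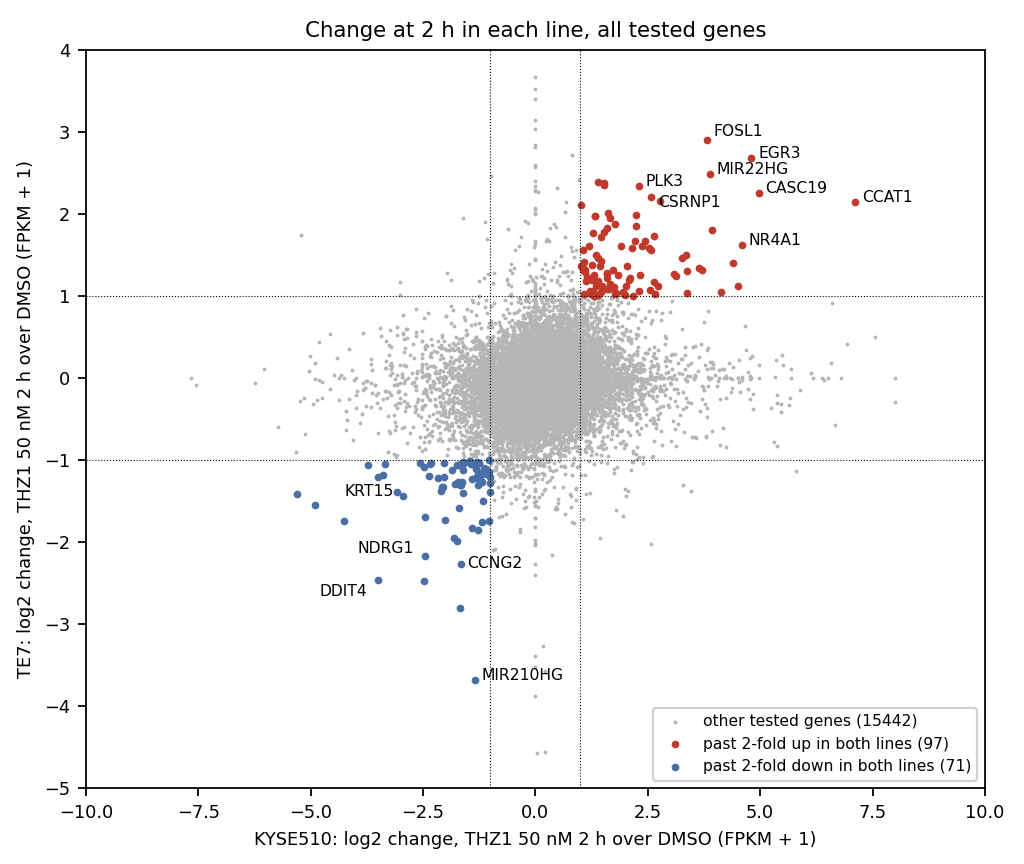
Log2 change of each tested gene at 2 h over DMSO in TE7 (vertical axis) and KYSE510 (horizontal axis), on the FPKM + 1 scale; dotted lines mark 2-fold, red and blue points are genes past it in both lines, and 5 genes lie outside the axes. KYSE510 changes spread more widely than those of TE7, and FOSL1, EGR3 and MIR22HG stand at the upper right with DDIT4 and NDRG1 at the lower left.

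**Figure D2:**
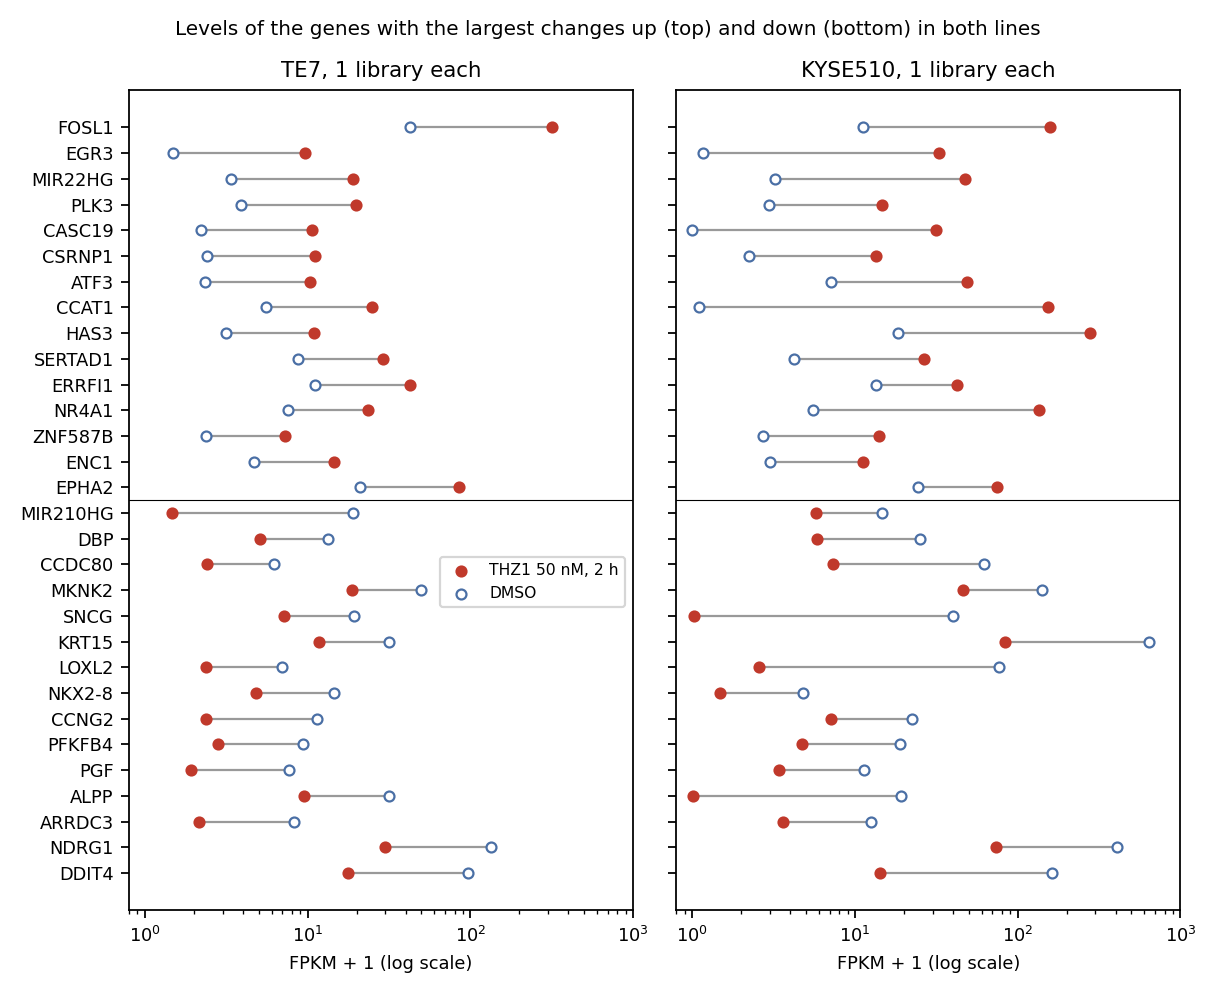
FPKM + 1 on a log axis for the 15 genes most raised and the 15 most lowered, ranked by the smaller change of the 2 lines, with THZ1 at 2 h as filled and DMSO as open points. Each point is 1 library, so no error is drawn; for CASC19, CCAT1, SNCG and ALPP the KYSE510 pair is much farther apart than the TE7 pair.

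AP-1 is a dimer of FOS, JUN, ATF and MAF family proteins, and its genes did not all lie on the same side. Of 13 tested members 7 were past 2-fold up and 1 down in TE7, and 5 were past it upward in both lines (FOSL1, ATF3, FOSB, MAFF and MAFK). The shares of all tested genes were 1.45% up and 1.82% down in TE7, and 0.621% up in both lines. ATF3, induced by many stresses, stood at 9.37 and 47.7 FPKM in TE7 and KYSE510 at 2 h, against 1.32 and 6.11 FPKM in DMSO. The small MAF gene MAFF stood at 21.6 and 28.0 FPKM at 2 h, against 3.32 and 10.1 FPKM in DMSO. FOSB stood at 31.9 and 45.8 FPKM at 2 h, against 10.6 and 3.60 FPKM in DMSO. For each of these the 2 h libraries lay above both DMSO libraries, an order whose share among all tested genes was not counted. FOS itself, the founding member of the family, went the other way, with 22.3 and 40.5 FPKM at 2 h, against 97.8 and 76.1 FPKM in DMSO. The log2 change of FOS was -2.09 in TE7 and -0.89 in KYSE510. JUN was past 2-fold only in TE7, with 22.8 and 16.7 FPKM at 2 h, against 6.78 and 21.6 FPKM in DMSO, so its groups overlapped. JUNB (0.74 and 0.50), FOSL2 (-0.18 and -0.51) and JDP2 (-0.55 and -0.76) stayed within 2-fold in both lines.

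The EGR zinc finger factors and the NR4A orphan nuclear receptors had 4 of 7 members past 2-fold up in both lines and 0 down. Over all tested genes the shares were 0.621% up and 0.455% down, so the 0 is not read as a result. EGR3 stood at 8.58 and 31.6 FPKM at 2 h, against 0.485 and 0.168 FPKM in DMSO. EGR2 stood at 4.75 and 4.33 FPKM at 2 h, against 0.561 and 0.571 FPKM in DMSO. NR4A1 stood at 22.4 and 134 FPKM at 2 h, against 6.54 and 4.56 FPKM in DMSO. EGR3 and EGR2 were under 1 FPKM in both DMSO libraries. The most abundant member, EGR1, was lower in TE7 and higher in KYSE510, with 61.2 and 141 FPKM at 2 h, against 99.7 and 56.5 FPKM in DMSO. Among IER, CSRNP and SERTAD genes 3 of 9 were past 2-fold up in both lines, which were CSRNP1, SERTAD1, a coactivator of E2F factors, and IER3. SERTAD1 stood at 28.1 and 25.4 FPKM at 2 h, against 7.75 and 3.22 FPKM in DMSO. The growth-factor-induced IER2 differed little, at 32.4 and 67.4 FPKM at 2 h, against 23.5 and 67.4 FPKM in DMSO.

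Of 12 Kruppel-like zinc finger factors 3 were past 2-fold up in TE7, 6 in KYSE510 and 2 in both, with 0 down. Shares of all tested genes were 1.45% up in TE7, 13.2% in KYSE510 and 0.621% in both. With 1.82% down in TE7 and 8.79% in KYSE510 over all genes, 0 of 12 is not read as a result. KLF11 stood at 5.94 and 26.9 FPKM at 2 h, against 1.70 and 9.21 FPKM in DMSO. KLF4, a regulator of epithelial differentiation, stood at 40.9 and 72.1 FPKM at 2 h, against 19.3 and 3.19 FPKM in DMSO. The squamous KLF5 was near level in TE7 at -0.15 and higher in KYSE510 at 1.71. Of the clock genes, which repress or drive each other in a daily loop, the repressor gene PER2 was past 2-fold up in both lines, at 9.99 and 13.7 FPKM at 2 h, against 3.60 and 1.92 FPKM in DMSO. The output factor gene DBP was past it downward, at 4.13 and 4.85 FPKM at 2 h, against 12.3 and 24.0 FPKM in DMSO. The list held 17 tested genes, with 2 up and 1 down past 2-fold in TE7.

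Some genes that send, receive or damp growth signals were also among those higher in both lines. Of 6 EGF receptor ligand genes 3 were past 2-fold up in TE7 and 2, AREG and HBEGF, in both lines. Over all tested genes those shares were 1.45% and 0.621%. AREG, which encodes amphiregulin, stood at 4.67 and 5.48 FPKM at 2 h, against 0.429 and 0.367 FPKM in DMSO. HBEGF stood at 4.12 and 22 FPKM at 2 h, against 0.859 and 1.39 FPKM in DMSO. EREG, the gene of epiregulin, split by line, with 22.6 FPKM in TE7 and 0.673 FPKM in KYSE510 at 2 h, against 5.09 and 4.08 FPKM in DMSO. Among 13 receptor tyrosine kinases EPHA2, an ephrin receptor, was the member past 2-fold in TE7, at 84.2 and 74.0 FPKM in TE7 and KYSE510 at 2 h, against 20.1 and 23.5 FPKM in DMSO. As a list the receptors did not rise, with 4 of 13 higher in both lines and 4 lower in both. Their medians were -0.05 in TE7 and 0.08 in KYSE510, where 5 were past 2-fold up and 3 down. EGFR itself had a TE7 change of 0.11, with 50.9 and 104 FPKM at 2 h, against 47.1 and 37.5 FPKM in DMSO.

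Feedback inhibitors of the same pathway had 6 of 17 members past 2-fold up and 0 down in TE7, with 3 up in both lines. All tested genes had 1.45% up and 1.82% down in TE7, and 0.621% up in both lines. ERRFI1, which binds and inhibits the EGF receptor, stood at 41.7 and 41.3 FPKM at 2 h, against 10.0 and 12.5 FPKM in DMSO. DUSP7 stood at 34.5 and 19.7 FPKM at 2 h, against 15.3 and 6.42 FPKM in DMSO, and SPRY4 was the third, at low levels of 4.14 and 1.69 FPKM at 2 h, against 0.685 and 0.174 FPKM in DMSO. The ERK phosphatase gene DUSP6 stood at 76.8 and 10.2 FPKM at 2 h, against 18.2 and 6.14 FPKM in DMSO, and so did not reach 2-fold in KYSE510, where its change was 0.65. DUSP5 was alike, with 26.2 and 17.5 FPKM at 2 h, against 5.12 and 10.5 FPKM in DMSO. DUSP4 had 19.8 and 1.53 FPKM at 2 h, against 2.76 and 3.99 FPKM in DMSO, a change of 2.47 in TE7 and -0.98 in KYSE510.

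YAP and TEAD are the transcription factors of the Hippo pathway, and 4 of 18 listed genes were past 2-fold up and 0 down in TE7, with CYR61, AMOTL2 and ANKRD1 up in both lines. Beside these stand 1.45% up and 1.82% down in TE7 over all tested genes, and 0.621% up in both lines. CYR61, which encodes a secreted matrix protein, stood at 209 and 109 FPKM at 2 h, against 40.0 and 37.4 FPKM in DMSO. AMOTL2, an angiomotin that restrains YAP, stood at 53.1 and 68.2 FPKM at 2 h, against 12.8 and 26.6 FPKM in DMSO. The factor genes themselves differed by line, with log2 changes of 0.04 in TE7 and -1.25 in KYSE510 for YAP1 and of 0.00 and -1.82 for TEAD1. PTHLH, the parathyroid hormone-like hormone gene, stood at 109 and 125 FPKM at 2 h, against 35.7 and 27.5 FPKM in DMSO. The chemokine gene IL8 stood at 45.5 and 73.0 FPKM at 2 h, against 9.77 and 35.4 FPKM in DMSO. HAS3, a hyaluronan synthase gene, stood at 9.99 and 277 FPKM at 2 h, against 2.14 and 17.3 FPKM in DMSO. IL8 was the member of 19 NF-kB genes past 2-fold in both lines, while the NF-kB inhibitor gene TNFAIP3 was past it in TE7, at 18.5 and 27.1 FPKM at 2 h, against 4.31 and 20.1 FPKM in DMSO.

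The endothelin genes stood on opposite sides. EDN1 stood at 4.82 and 101 FPKM at 2 h, against 1.21 and 3.83 FPKM in DMSO, and EDN2 at 0.614 and 0.246 FPKM at 2 h, against 4.21 and 5.79 FPKM in DMSO. Cholesterol synthesis genes had a different pattern by line: 18 of 23 tested were past 2-fold down in KYSE510, against 0 in TE7. Over all tested genes the shares down were 8.79% and 1.82%, so the 0 is not read as a result. The KYSE510 count rests on the library labelled KYSE510 DMSO, whose part in it was not tested. The list median was -0.13 in TE7 and -1.63 in KYSE510, against -0.06 and 0.05 over all tested genes.

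PLK3, a stress-activated polo-like kinase gene, stood at 18.7 and 13.6 FPKM at 2 h, against 2.89 and 1.97 FPKM in DMSO. Its mean change of 2.32 ± 0.24 was among the most even between the lines (2.34 in TE7 and 2.30 in KYSE510) and did not pass limma (adjusted p = 0.0664). AEN, an exonuclease gene regulated by p53, stood at 39.6 and 27.8 FPKM at 2 h, against 14.7 and 6.02 FPKM in DMSO. Of 24 p53 targets 4 were past 2-fold up and 0 down in TE7, 12 up in KYSE510 and 2 up in both. Over all tested genes the shares up were 1.45% in TE7, 13.2% in KYSE510 and 0.621% in both, and 1.82% were down in TE7. GADD45A, which encodes a growth arrest protein, stood at 54.6 and 45.5 FPKM at 2 h, against 9.43 and 22.7 FPKM in DMSO. MCL1, the gene of a short-lived survival protein of the BCL2 family, stood at 271 and 195 FPKM at 2 h, against 101 and 145 FPKM in DMSO. It was the 1 of 14 BCL2 family genes past 2-fold in TE7, where its change was 1.41, against 0.43 in KYSE510.

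Cyclin E genes, which drive entry into S phase, were past 2-fold up in both lines. CCNE1 stood at 14.7 and 24.4 FPKM at 2 h, against 5.75 and 4.94 FPKM in DMSO, and CCNE2 at 40.7 and 18.3 FPKM at 2 h, against 16.4 and 5.43 FPKM in DMSO. Of 26 G1 to S genes 18 were higher in both lines at any size, where 24.7% of all tested genes were. The G2 and mitosis list ran the other way: 22 of 30 were lower in both lines at any size, where 29.2% of all tested genes were, with medians of -0.69 in TE7 and -0.59 in KYSE510. KIF20A, a kinesin of cytokinesis, stood at 15.1 and 18.4 FPKM at 2 h, against 37.6 and 58.9 FPKM in DMSO. HMMR, a spindle-associated protein gene, stood at 19.4 and 23.8 FPKM at 2 h, against 39.9 and 49.9 FPKM in DMSO. AURKA, the mitotic kinase gene, stood at 54.6 and 55.5 FPKM at 2 h, against 119 and 87.5 FPKM in DMSO. In these bulk libraries fewer cells in mitosis and less of these RNAs per cell cannot be told apart. CDK1 was nearly level, with changes of -0.09 and -0.16.

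**Figure D3:**
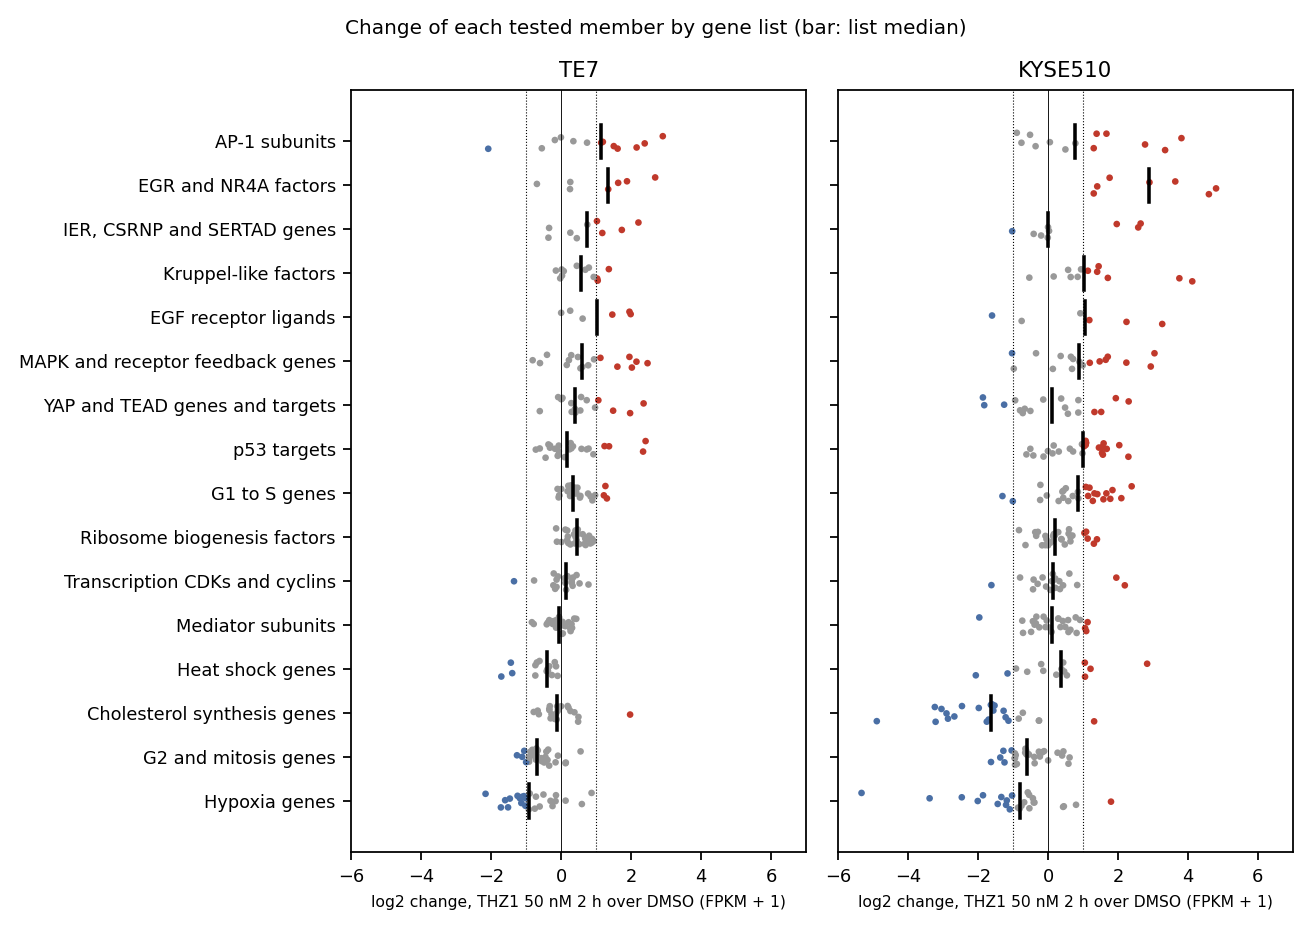
Log2 change at 2 h over DMSO of every tested member of 16 gene lists in TE7 (left) and KYSE510 (right), on the FPKM + 1 scale, with a black bar at the list median and colour for genes past 2-fold. Medians of the AP-1 and the EGR and NR4A lists lie to the right in both lines and those of hypoxia and mitosis genes to the left, while medians of heat shock and cholesterol genes differ by line.

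The integrated stress response list, which follows phosphorylation of the initiation factor eIF2, went both ways, with 2 of 20 genes past 2-fold up and 2 down in both lines. All tested genes had 0.621% up and 0.455% down in both lines. PPP1R15A, whose protein directs a phosphatase to eIF2, stood at 70.8 and 49.5 FPKM at 2 h, against 20.9 and 17.2 FPKM in DMSO. ATF5 stood at 35.8 and 32.7 FPKM at 2 h, against 12.8 and 14.8 FPKM in DMSO. DDIT4 and CEBPB were the members that were lower. Of 14 unfolded protein response genes 0 were past 2-fold in TE7, where 1.45% of all tested genes were past it up and 1.82% down. HSPA5, the main chaperone of the endoplasmic reticulum, was level in TE7 at -0.03.

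PPP1R15A, AREG, MAFF and EPHA2 belong to 7 genes past 2-fold up in both lines whose RefSeq promoter window (250 bases before to 50 after the start, GRCh38.p14) held the cyclic AMP response element TGACGTCA. SLC25A25, a mitochondrial carrier gene, also held it, at 14.5 and 22.5 FPKM at 2 h, against 4.17 and 3.05 FPKM in DMSO. TUBB2A and GPR3 completed the 7. The windows are given because no window of a gene past 2-fold down in both lines held this motif. Each reads 5′ to 3′ on the gene's own strand, with the element in capitals. PPP1R15A lies at chr19:48872171-48872470 on the plus strand, AREG at chr4:74444886-74445185 on the plus strand, EPHA2 at chr1:16156020-16156319 on the minus strand, MAFF at chr22:38201744-38202043 on the plus strand and SLC25A25 at chr9:128098257-128098556 on the plus strand.
PPP1R15A: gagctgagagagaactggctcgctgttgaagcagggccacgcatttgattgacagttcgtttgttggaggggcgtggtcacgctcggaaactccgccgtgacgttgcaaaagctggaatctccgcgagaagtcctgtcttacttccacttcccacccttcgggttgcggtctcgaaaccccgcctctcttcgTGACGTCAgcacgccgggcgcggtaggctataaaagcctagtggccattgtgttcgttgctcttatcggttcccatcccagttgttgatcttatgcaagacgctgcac
AREG: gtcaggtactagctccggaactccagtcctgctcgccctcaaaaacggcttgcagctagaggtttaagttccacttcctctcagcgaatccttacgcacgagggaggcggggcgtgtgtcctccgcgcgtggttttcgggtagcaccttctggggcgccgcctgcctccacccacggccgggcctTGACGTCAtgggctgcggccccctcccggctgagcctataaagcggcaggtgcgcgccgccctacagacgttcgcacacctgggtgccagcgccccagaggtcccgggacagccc
EPHA2: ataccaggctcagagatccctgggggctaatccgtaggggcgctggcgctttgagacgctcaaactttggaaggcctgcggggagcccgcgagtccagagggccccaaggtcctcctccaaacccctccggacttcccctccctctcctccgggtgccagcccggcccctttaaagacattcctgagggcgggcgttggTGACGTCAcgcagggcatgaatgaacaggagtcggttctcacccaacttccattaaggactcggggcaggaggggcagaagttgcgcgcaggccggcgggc
MAFF: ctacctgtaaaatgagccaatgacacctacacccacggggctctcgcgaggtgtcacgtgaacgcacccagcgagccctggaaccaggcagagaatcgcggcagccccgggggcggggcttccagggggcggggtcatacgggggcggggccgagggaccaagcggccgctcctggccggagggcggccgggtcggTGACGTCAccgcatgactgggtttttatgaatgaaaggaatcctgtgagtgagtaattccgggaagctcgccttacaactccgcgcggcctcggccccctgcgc
SLC25A25: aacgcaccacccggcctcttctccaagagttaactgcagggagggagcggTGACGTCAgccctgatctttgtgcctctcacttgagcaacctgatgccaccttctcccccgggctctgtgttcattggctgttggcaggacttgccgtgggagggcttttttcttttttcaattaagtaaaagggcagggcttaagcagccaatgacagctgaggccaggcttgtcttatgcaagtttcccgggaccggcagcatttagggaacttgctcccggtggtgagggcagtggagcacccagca
The element began 58 bases before the start in PPP1R15A, 65 in AREG, 51 in EPHA2, 54 in MAFF and 200 in SLC25A25. Of the 97 genes past 2-fold up in both lines 64 had a promoter in the table, and 7 of these (10.9%) held the element on either strand, against 3.32% of 10715 promoters of tested genes and 1.85% of all 35116 promoters. Of the 50 promoters of genes past 2-fold down in both lines 0 held it, and likewise 0 of 177 for genes down in TE7. The AP-1 site TGANTCA was in 15.6% of the promoters of higher genes and 2.0% of those of lower genes, against 4.79% of tested genes. It was in 6.21% of promoters of genes down in TE7 and in 7.71% of all promoters. TATAAA was in 15.6% and 6.0%, against 5.71%. For genes down in TE7 the TATAAA share was 9.6%, and for all promoters 11.5%. The hypoxia response core ACGTG was in 25% and 28.0%, against 26.7%, and the GC box GGGCGG in 65.6% and 74.0%, against 70.1%. The CArG box bound by serum response factor was in 0 of 64 promoters of higher genes and 1 of 50 (2.0%) of lower genes, against 0.98% of tested genes. These counts are too small to compare. As searched, the element and the AP-1 site cannot overlap, while the hypoxia core can share edge letters with either. Matches describe the letters in these windows and show no binding.

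**Figure D4:**
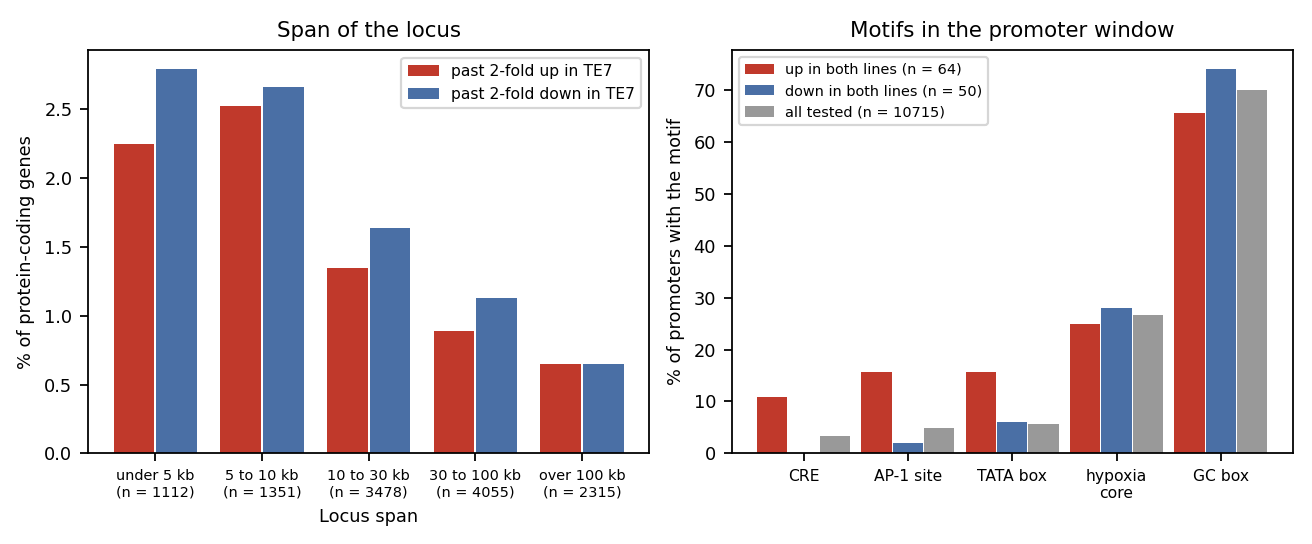
Left, share of protein-coding genes past 2-fold up or down in TE7 by the span of their locus on hg19; right, share of promoter windows that hold each motif among genes past 2-fold up in both lines, down in both lines, and all tested genes. In both directions the share past 2-fold is lower for loci over 10 kb than for shorter ones, and the cyclic AMP response element (CRE) and AP-1 site bars are tallest for the higher genes.

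Genes past 2-fold tended to be short, in either direction. Protein-coding genes past 2-fold up in both lines had a median locus span of 14016 bases (75 coding genes), those past it downward 19145 bases (59 coding genes), and all tested coding genes 31664 bases. In TE7 the share past 2-fold up was 2.25% of coding genes under 5 kb and 0.648% of those over 100 kb, and the share down was 2.79% and 0.648%. Median levels were alike, at 10.6 FPKM for the higher, 9.84 FPKM for the lower and 9.26 FPKM for all tested genes.

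By matched biotype, long noncoding genes made up 13 of the 97 genes past 2-fold up in both lines and 10 of the 71 down. Among all 15610 tested genes they numbered 1861, a share near that of both sets. Some in the sets lie within coding loci of the same set, those of NR4A1, PTHLH and DDIT4 among them. Use of strand is not given, so the counts may partly repeat coding genes. CCAT1 had no matched biotype and was not counted. Of 14 microRNA host and abundant noncoding genes 4 were past 2-fold up and 1 down in both lines, against 0.621% and 0.455% of all tested genes. MIR22HG, the host transcript of miR-22, stood at 18.1 and 46.6 FPKM at 2 h, against 2.38 and 2.24 FPKM in DMSO. MIR17HG, host of the miR-17 to miR-92 cluster, stood at 12.9 and 23.6 FPKM at 2 h, against 4.65 and 1.38 FPKM in DMSO. MIR210HG, host of the hypoxia microRNA miR-210, stood at 0.477 and 4.77 FPKM at 2 h, against 18.0 and 13.7 FPKM in DMSO. The mature microRNAs were not measured here; their RefSeq sequences are given to identify the hosts, with the seed, bases 2 to 8, in capitals, and no seed is shared between them.
hsa-miR-22-3p: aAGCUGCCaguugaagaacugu
hsa-miR-17-5p: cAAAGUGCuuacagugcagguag
hsa-miR-210-3p: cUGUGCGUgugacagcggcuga

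CCAT1 and CASC19, neighbouring long noncoding genes, were higher in both lines by unequal amounts. CCAT1 stood at 23.8 and 152 FPKM at 2 h, against 4.58 and 0.107 FPKM in DMSO, and CASC19 at 9.60 and 30.3 FPKM at 2 h, against 1.22 FPKM in TE7 DMSO and a listed value of 0 in KYSE510 DMSO. Both belong to the 61 genes that were low in the library labelled KYSE510 DMSO, and their TE7 changes were 2.15 and 2.26. MALAT1 (0.93 in TE7 and 1.91 in KYSE510) and NEAT1 (-0.34 and 1.11) did not reach 2-fold in TE7.

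Of the genes lower in both lines, DDIT4 ranked first among those with an ordinary symbol when the smaller change of the lines was used. It lies on chromosome 10 at 74033678 to 74035794, and its product restrains the growth kinase complex mTORC1. DDIT4 stood at 16.7 and 13.3 FPKM in TE7 and KYSE510 at 2 h, against 96.4 and 162 FPKM in DMSO, a mean log2 change of -2.98 ± 0.38 (limma adjusted p = 0.113). A clone-named transcript overlaps it on the same stretch, and whether reads were assigned by strand is not given in the sources used here. NDRG1, a stress and hypoxia response gene, stood at 28.8 and 72.9 FPKM at 2 h, against 132 and 407 FPKM in DMSO. For both genes each 2 h library lay under both DMSO libraries, an order that was not counted over all tested genes.

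Hypoxia genes, which the oxygen-regulated factor HIF switches on, had 12 of 25 members past 2-fold down and 0 up in TE7, 11 down and 1 up in KYSE510, and 5 down in both. Over all tested genes the shares down were 1.82% in TE7, 8.79% in KYSE510 and 0.455% in both. The shares up were 1.45% in TE7 and 13.2% in KYSE510. At any size 20 of 25 were lower in both lines, where 29.2% of all tested genes were, and the medians were -0.92 in TE7 and -0.81 in KYSE510. PFKFB4, a regulator of glycolysis, stood at 1.82 and 3.72 FPKM at 2 h, against 8.32 and 18.0 FPKM in DMSO. BNIP3L, a receptor for the removal of mitochondria, stood at 19.4 and 40.2 FPKM at 2 h, against 47.5 and 93.8 FPKM in DMSO. EGLN3, an oxygen-sensing hydroxylase gene, was low in TE7, at 0.314 and 10.0 FPKM in TE7 and KYSE510 at 2 h, against 1.99 and 114 FPKM in DMSO. The lysyl oxidase gene LOX, past 2-fold down in both lines as well, stood at 0.663 and 4.99 FPKM at 2 h, against 2.62 and 20.7 FPKM in DMSO. VEGFA, the best known angiogenic target of HIF, was higher, at 58.4 and 38.6 FPKM at 2 h, against 31.5 and 21.7 FPKM in DMSO, within 2-fold on the log2 scale (0.87 and 0.80). ANGPTL4 was lower in TE7 at -1.60 and higher in KYSE510 at 1.80.

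Genes of growth restraint under FOXO factors and arrestin-domain genes were mixed. CCNG2, the gene of the growth-inhibiting cyclin G2, stood at 1.36 and 6.10 FPKM at 2 h, against 10.4 and 21.5 FPKM in DMSO. ARRDC3, an adaptor that brings receptors to degradation, stood at 1.14 and 2.59 FPKM at 2 h, against 7.27 and 11.6 FPKM in DMSO, and had the lowest adjusted p of the genes that were lower (limma mean change -1.88 ± 0.21, adjusted p = 0.0986). IRS2, the insulin receptor substrate gene of the same list, was past 2-fold up in both lines, at 21.5 and 10.9 FPKM at 2 h, against 9.37 and 1.95 FPKM in DMSO. TXNIP stayed within 2-fold, at -0.39 and 0.94. Of the 16 tested genes 3 were past 2-fold down and 1 up in TE7, against 1.82% and 1.45% of all tested genes.

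Other genes lower in both lines were spread over kinases, lineage factors and secreted proteins. MKNK2, a kinase gene acting on the cap-binding factor eIF4E, stood at 17.8 and 45.2 FPKM at 2 h, against 48.6 and 140 FPKM in DMSO. KRT15, a keratin of basal epithelial cells, stood at 10.7 and 82.3 FPKM at 2 h, against 30.7 and 642 FPKM in DMSO, and was the 1 of 10 squamous keratins past 2-fold in TE7. The factor gene GATA3 stood at 7.73 and 0.0711 FPKM at 2 h, against 20.8 and 3.43 FPKM in DMSO. CEBPB, a bZIP factor gene without introns, stood at 36.5 and 12.5 FPKM at 2 h, against 76.2 and 67.5 FPKM in DMSO. LGALS1, the galectin-1 gene, stood at 144 and 75.6 FPKM at 2 h, against 349 and 250 FPKM in DMSO. PGF, a growth factor gene of the VEGF family, stood at 0.931 and 2.43 FPKM at 2 h, against 6.67 and 10.4 FPKM in DMSO. ALPP was lower in both lines as well (-1.74 and -4.25), with the limit that near-identical copies of this alkaline phosphatase gene share reads.

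TE7 had shifts of its own size that KYSE510 did not show past 2-fold. TRIB1, which encodes a pseudokinase, stood at 36.1 and 38.2 FPKM in TE7 and KYSE510 at 2 h, against 4.62 and 21.4 FPKM in DMSO. The zinc exporter gene SLC30A1 stood at 34.6 and 19.9 FPKM at 2 h, against 6.11 and 14.0 FPKM in DMSO. OVOL1, an epithelial differentiation factor gene, stood at 22.6 and 3.58 FPKM at 2 h, against 5.55 and 2.33 FPKM in DMSO. All 3 were higher in KYSE510 too, by less than 2-fold. Of the genes lower in TE7, the creatine transporter gene SLC6A8 stood at 6.77 and 121 FPKM at 2 h, against 33.6 and 93.1 FPKM in DMSO.

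Heat shock genes had list medians of -0.41 in TE7 and 0.38 in KYSE510. At any size 6 of 15 were lower in both lines and 0 higher in both, where 29.2% and 24.7% of all tested genes were. In TE7 3 were past 2-fold down and 0 up, against 1.82% and 1.45% of all tested genes. KYSE510 had 2 down and 4 up, against 8.79% and 13.2%, so these small counts are not read as a result. HSPB1, the small heat shock protein gene, stood at 251 and 543 FPKM in TE7 and KYSE510 at 2 h, against 663 and 233 FPKM in DMSO. HSPA1A stood at 9.36 and 56.6 FPKM at 2 h, against 32.9 and 26.7 FPKM in DMSO, and shares near-identical sequence with HSPA1B, which makes the split between them uncertain. HSP90AA1 was lower in both lines, at -0.74 and -0.59. Of the squamous lineage factors, SOX2 stood at 6.55 and 102 FPKM at 2 h, against 18.5 and 8.37 FPKM in DMSO, while TP63 was within 2-fold at -0.29 and 0.21. The difference between the lines was not tested for any of these genes.

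The targeted kinase genes were level. CDK7 stood at 24.1 and 23.7 FPKM at 2 h, against 26.5 and 21.9 FPKM in DMSO, and THZ1 acts on the protein, so its RNA does not check the treatment. CDK12 had log2 differences of 0.12 in TE7 and 0.34 in KYSE510, and CDK13 of -0.22 and 0.15. Among 20 CDKs of transcription, their cyclins and regulators 1 was past 2-fold in TE7, HEXIM2, an inhibitor of the elongation kinase P-TEFb, at 0.792 and 3.67 FPKM at 2 h, against 3.56 and 3.04 FPKM in DMSO. Of 34 RNA polymerase II and general factor genes and 29 Mediator genes 0 were past 2-fold in TE7 in either direction. Among all tested genes 1.45% were past it up and 1.82% down, so a count of 0 in such short lists is not read as a result. Cyclin L1 (CCNL1), a cofactor of splicing kinases, was at 65.2 and 143 FPKM at 2 h, against 37.5 and 36.3 FPKM in DMSO.

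Small shifts shared by many members marked further gene sets. Of 29 ribosome biogenesis factors 19 were higher in both lines, with medians of 0.44 in TE7 and 0.20 in KYSE510, and 0 were past 2-fold in TE7. NOP56, a core protein of small nucleolar particles, stood at 295 and 238 FPKM at 2 h, against 175 and 158 FPKM in DMSO. Of 86 cytosolic ribosomal protein genes 67 were lower in both lines, with medians of -0.23 and -0.35, and this count was 58 with libraries rescaled to equal sums of FPKM. Among SR proteins, hnRNPs and CLK kinases of splicing 19 of 29 were higher in both lines, with SRSF6 past 2-fold in TE7, at 216 and 153 FPKM at 2 h, against 105 and 84.4 FPKM in DMSO. The 24.7% of all tested genes higher in both lines and the 29.2% lower in both stand beside these counts. For counts past 2-fold in TE7 the shares of all tested genes were 1.45% up and 1.82% down.

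Of 5 genes that the study links to super-enhancers, RUNX1 was past 2-fold up in TE7, at 34.7 and 18.4 FPKM at 2 h, against 14.5 and 28.8 FPKM in DMSO, so the lines stood on opposite sides. PAK4 stood at 24.1 and 27.4 FPKM at 2 h, against 35.3 and 27 FPKM in DMSO. DNAJB1 (-0.18 and 1.05), SREBF2 (-0.15 and -1.75) and YAP1 (0.04 and -1.25) were within 2-fold in TE7.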

How the data were processed

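Polyadenylated RNA of 12 libraries was deposited by the authors as 1 table of FPKM per library and gene, whose columns are Cufflinks' own, per the file headers. The submitters' processing notes name STAR, Cufflinks and hg19; what the sources used here do not give are versions, settings and the use of strand. Tables hold no counts, so no count test was run; the authors' 95% bounds describe counting error. Identifiers listed at several loci were summed.

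Values were analysed as log2(FPKM + 1), with a pseudocount of 1. Genes that reached 1 FPKM in 2 or more of the 12 libraries, 15610 in all, were fitted with limma 3.58.1 in R 4.3.3, with condition terms, a cell-line block and a variance trend. The test was two-sided with Benjamini-Hochberg adjustment and a threshold of 0.05, on 5 residual degrees of freedom plus 2.86 from the prior. The 2 pairs could not reach that threshold in a permutation test. Same-numbered libraries come from the same line, so the pairing holds by design; line differences at 2 h and in DMSO correlated at r = 0.624 across genes. Per line, genes at or past 2-fold are described without a test. Biotypes came from GENCODE by identifier, coordinates from the authors' tables, promoter and microRNA sequences from RefSeq on GRCh38.p14.

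Members, lists and motifs were chosen with earlier results of these data known. Named genes had a mean of at least 5 FPKM over the 4 libraries and an ordinary symbol. They were the 15 highest and 15 lowest by the smaller change of the lines, the 10 highest and 10 lowest in TE7, limma calls, CDK7, CDK12, CDK13, the super-enhancer genes and up to 4 members per list and direction. Of 111 genes named, 36 were picked outside that rule after their values were seen, among them EDN1, EDN2, DUSP5, DUSP6, EGR1, EGR2, JUN, AREG, HSPA1A, HSPB1 and SOX2. Alternatives changed the pseudocount, filter, scaling, locus, fold bound, block, variance model or libraries. A table of the whole series was not used, and some genes are not reported here.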

Additional observations from a re-analysis of the deposited data

Results flagged for a closer look

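Of the genes named above, 16 stood on opposite sides of DMSO in the lines, with the authors' 95% bounds of the 2 h and the DMSO library apart in each line. The bounds cover counting error only, each line has 1 library per condition, and the difference between the lines was not tested. Higher in TE7 and lower in KYSE510 were DUSP4 with log2 changes of 2.47 and -0.98, EREG with 1.95 and -1.60, JUN with 1.61 and -0.36, and RUNX1 with 1.20 and -0.62. Lower in TE7 and higher in KYSE510 were SLC6A8 with -2.15 and 0.38, HSPA1A with -1.71 and 1.06, ANGPTL4 with -1.60 and 1.80, HSPB1 with -1.4 and 1.22, KRT19 with -1.14 and 5.79, SOX2 with -1.37 and 3.45, and EGR1 with -0.69 and 1.31. Smaller TE7 differences of the same kind were those of TXNIP at -0.39 and 0.94, NEAT1 at -0.34 and 1.11, TP63 at -0.29 and 0.21, CDK13 at -0.22 and 0.15, and DNAJB1 at -0.18 and 1.05. Each of these KYSE510 values rests on the library labelled KYSE510 DMSO, whose part in them was not tested.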

How the results depend on the processing

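With limma, 2 genes were called up and 0 down. Up and down calls numbered 1 and 0 with a pseudocount of 0.1, 5 and 3 with a pseudocount of 5, 6 and 11 with no filter, 1 and 0 with a mean of at least 5 FPKM, and 1 and 0 under median-of-ratios, equal-sum and upper-quartile scaling. Without the cell-line block 0 genes were called up, and 0 in the 4 libraries alone with the block, so both calls rest on the pairing and on the spread of all libraries. Leaving out 1 of the 4 libraries at a time gave 0 to 924 calls up and 0 to 793 down. Chosen after the data were seen, the fit without the library labelled KYSE510 DMSO and both 200 nM libraries gave 88 up and 107 down. Genes past 2-fold up and down in TE7 (226 and 284) numbered 491 and 726 with a pseudocount of 0.1, 90 and 59 with 5, 144 and 145 with a mean of at least 5 FPKM, 792 and 1325 at 1.5-fold, and 78 and 52 at 3-fold. In KYSE510 (2063 and 1372) they numbered 868 and 678 with a pseudocount of 5, 1192 and 901 with that mean, 3761 and 2813 at 1.5-fold, and 883 and 575 at 3-fold. With no filter they numbered 2093 and 1677 in KYSE510 and 240 and 306 in TE7. In both lines (97 and 71) they numbered 234 and 226 with a pseudocount of 0.1, 33 and 14 with 5, 367 and 427 at 1.5-fold, and 23 and 11 at 3-fold. Leaving out a library leaves no per-line value. The cause of these shifts was not tested, beyond that a higher bound, filter or pseudocount admits fewer genes.

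Of 2097 recomputed mean changes of the 111 genes named, 1948 kept their direction and call and 41 changed sign, in 21 genes. Leaving out 1 library at a time gave ANGPTL4 -1.06 to 1.26, CDK13 -0.18 to 0.11, CDK7 -0.32 to 0.29, DUSP4 -0.46 to 1.95, EGR1 -0.89 to 1.5, EREG -1.26 to 1.61, HSPA1A -1.28 to 0.62, HSPB1 -1.43 to 1.25, IER2 -0.34 to 0.79, JUN -0.25 to 1.5, KLF5 -0.16 to 1.72, KRT19 -0.607 to 5.26, NEAT1 -0.17 to 0.95, RUNX1 -0.62 to 1.20, SLC6A8 -1.87 to 0.089, SOX2 -1.03 to 3.12, TNFAIP3 -0.0062 to 2.29, TP63 -0.44 to 0.36, TXNIP -0.14 to 0.69 and YAP1 -1.24 to 0.026. Without the library labelled KYSE510 DMSO and the 200 nM libraries, ANGPTL4 was -1.17, DNAJB1 -0.13, EGR1 -0.91, KLF5 -0.11, KRT19 -1.23, SOX2 -0.74 and TXNIP -0.14. Under equal sums CDK13 was 0.035, CDK7 0.061 and TP63 0.033, and with a pseudocount of 0.1 EREG was -0.15.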
